A study of Mus musculus with 16 samples.

Results

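The integrin and laminin genes were followed across 4 mouse tendons. They were chosen by gene symbol alone, as every integrin alpha, integrin beta, laminin alpha, laminin beta and laminin gamma chain whose name fits the standard Itga, Itgb, Lama, Lamb and Lamc pattern, which gave 37 of the 41204 genes in the count table. These were 18 integrin alpha, 8 integrin beta, 5 laminin alpha, 3 laminin beta and 3 laminin gamma genes, and all 37 were found in the GENCODE annotation of GRCm38, the assembly also called mm10. RNA sequencing compared the Achilles tendon of the calf, the flexor tendon of the forepaw (Flexor below), the patellar tendon of the knee and the supraspinatus tendon of the shoulder, each from C57BL/6J mice, an inbred strain, with 4 libraries per tendon and 16 in all. The design asked for mRNA differences between every pair of tendons. No treatment, transgene or age is given in the sources used here, nor whether a mouse number shared by tendons means 1 animal.

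Integrins are cell-surface receptors made of 1 alpha and 1 beta chain, and the pair decides whether the cell grips collagen, fibronectin, laminin or a neighbouring cell. Laminins are cross-shaped proteins of 1 alpha, 1 beta and 1 gamma chain that build the basement membrane around muscle fibres, nerves, vessels and fat cells and beneath epithelia. In tendon, collagen-binding and fibronectin-binding integrins join the fibroblasts to the load-bearing matrix, and at the junction with muscle the laminin receptor integrin alpha 7 beta 1 and laminin-211 link muscle fibres to the tendon.

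The promoter windows of 4 members are printed because each member carried a main difference described below, in Flexor (Itga5), Patellar (Itgb6 and Itga2) or Supraspinatus (Itgav). Each is the 250 bases before the RefSeq gene start on the gene's own strand, 5′ to 3′, on GRCm38.p6. The GENCODE start differs for 2 of them. It is at 60722643 for Itgb6, so the end of that window, with its last CANNTG, lies inside the GENCODE gene. For Itga5 it is at 103366763, so that window stops short of it. Capitals mark each CANNTG, the E-box letters that basic helix-loop-helix factors such as the tendon factor scleraxis can bind.
Itga5 chr15:103366792-103367041 (- strand): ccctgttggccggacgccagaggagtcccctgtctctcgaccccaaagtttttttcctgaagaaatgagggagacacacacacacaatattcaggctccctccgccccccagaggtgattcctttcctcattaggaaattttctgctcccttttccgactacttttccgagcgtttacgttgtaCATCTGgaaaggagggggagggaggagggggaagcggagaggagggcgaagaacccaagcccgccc
Itgb6 chr2:60722604-60722853 (- strand): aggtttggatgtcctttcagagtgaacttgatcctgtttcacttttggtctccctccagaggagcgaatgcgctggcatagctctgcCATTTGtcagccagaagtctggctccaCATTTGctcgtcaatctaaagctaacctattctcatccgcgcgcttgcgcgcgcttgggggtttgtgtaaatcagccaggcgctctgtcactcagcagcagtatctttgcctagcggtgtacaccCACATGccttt
Itga2 chr13:114932101-114932350 (- strand): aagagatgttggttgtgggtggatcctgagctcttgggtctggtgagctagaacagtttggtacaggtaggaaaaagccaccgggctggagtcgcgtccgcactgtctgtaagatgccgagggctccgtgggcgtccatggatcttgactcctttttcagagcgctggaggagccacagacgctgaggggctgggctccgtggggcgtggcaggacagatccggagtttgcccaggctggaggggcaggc
Itgav chr2:83724147-83724396 (+ strand): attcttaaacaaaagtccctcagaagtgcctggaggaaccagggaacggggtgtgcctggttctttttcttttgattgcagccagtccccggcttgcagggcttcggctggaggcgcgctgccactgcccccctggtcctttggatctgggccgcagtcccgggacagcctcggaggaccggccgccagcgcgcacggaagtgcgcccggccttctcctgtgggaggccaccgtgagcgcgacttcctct
These windows held 1 (Itga5), 3 (Itgb6), 0 (Itga2) and 0 (Itgav) copies of CANNTG, a pattern that is the same on both strands. RefSeq windows were matched for 23 of the 37 members, with 26 windows, of which 21 held CANNTG and 9 held the GC box GGGCGG on either strand. Over all 32851 windows of this length, 66.2% held CANNTG and 32.7% held GGGCGG. A match describes the letters only.

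Total counts per library ran from 84414005 to 97180849 in Achilles, 97242489 to 106573353 in Flexor, 34559686 to 63235636 in Patellar and 86898889 to 107805065 in Supraspinatus, and the 37 members together took 0.273% ± 0.0247, 0.275% ± 0.0217, 0.175% ± 0.0445 and 0.255% ± 0.0297 of the counts in that order (mean ± SD, n = 4). Genes with rRNA-like sequence took 13.2% to 42.0% of the Patellar counts and 1.86% to 4.91% in the other libraries. Levels below are therefore CPM, that is, counts divided by the library's total after TMM scaling and expressed per 1000000, and levels of different genes are compared only per kilobase of exon (RPKM). Tendon markers were present in every library, with Tnmd at 214 to 398 CPM in Patellar and 84.9 to 121 in Flexor, and Scx at 86.3 to 128 in Patellar and 3.49 to 6.09 in Flexor. The libraries also held RNA of other cells. The 35 skeletal muscle markers summed to 58080 to 123500 CPM in Achilles, 85040 to 133100 in Flexor, 632 to 12110 in Patellar and 197900 to 222000 in Supraspinatus. In bulk tissue such as this, fewer cells of a type and less RNA per cell cannot be told apart.

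Most members differed between tendons. Of the 37, 36 passed the filter on low counts, and 28 of these 36 (77.8%) differed over the 4 tendons, where 64.9% of all 23754 genes tested did (edgeR quasi-likelihood test, Benjamini-Hochberg adjusted p under 0.05). The 8 that did not pass that test were Itga4, Itga11, Itgad, Itgal, Itgam, Itgax, Itgb2 and Lamb1. The gene below the filter was Lama1, the laminin alpha chain of the embryo and of some epithelial basement membranes, with 0 to 27 counts per library. Lama1 was at 0 in all 4 Supraspinatus libraries, where 3 counts, taken here as an approximate upper limit for a count of 0, would be 0.0325 to 0.0393 CPM.

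The fewest members were called between Flexor and Achilles. There 3 of 36 members passed, 2 higher in Flexor (Itga5 and Lamb3) and 1 lower (Itgae), or 8.33%, against 16.2% of all genes (6.5% higher and 9.72% lower). With Patellar replicate 3 left out the count was 6, where 21.9% of all genes passed. In a fit of these 8 libraries alone it was 8, where 29.3% of all genes passed. Between Patellar and Achilles 18 members passed, 6 higher and 12 lower in Patellar (50%), against 38.4% of all genes (17.4% higher and 21.1% lower). With the muscle markers' mean level as a covariate, 10 passed in that comparison, 8 of them among the 18, and 15.5% of all genes did. Between Patellar and Flexor 22 passed, 7 higher and 15 lower in Patellar (61.1%), against 50.3% of all genes (24.2% higher and 26.2% lower). The muscle covariate left 15 passing there, 13 of them among the 22, and 22.4% of all genes. Between Supraspinatus and Achilles 20 passed, 7 higher and 13 lower in Supraspinatus (55.6%), against 33.6% of all genes (16.9% higher and 16.7% lower). Between Supraspinatus and Flexor 19 passed, 7 higher and 12 lower (52.8%), against 27.1% of all genes (14.7% higher and 12.4% lower). Between Supraspinatus and Patellar 18 passed, 10 higher and 8 lower (50%), near the 53.3% of all genes (26.4% higher and 26.8% lower). With the muscle covariate 11 passed there, 6 of them among the 18, and 20.6% of all genes did. The median log2 fold change of the members was -0.40 in Patellar minus Achilles and -0.29 in Patellar minus Flexor, where the medians of all genes were -0.014 and -0.0095. The comparisons share libraries, so their counts are not independent of each other.

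**Figure D1:**
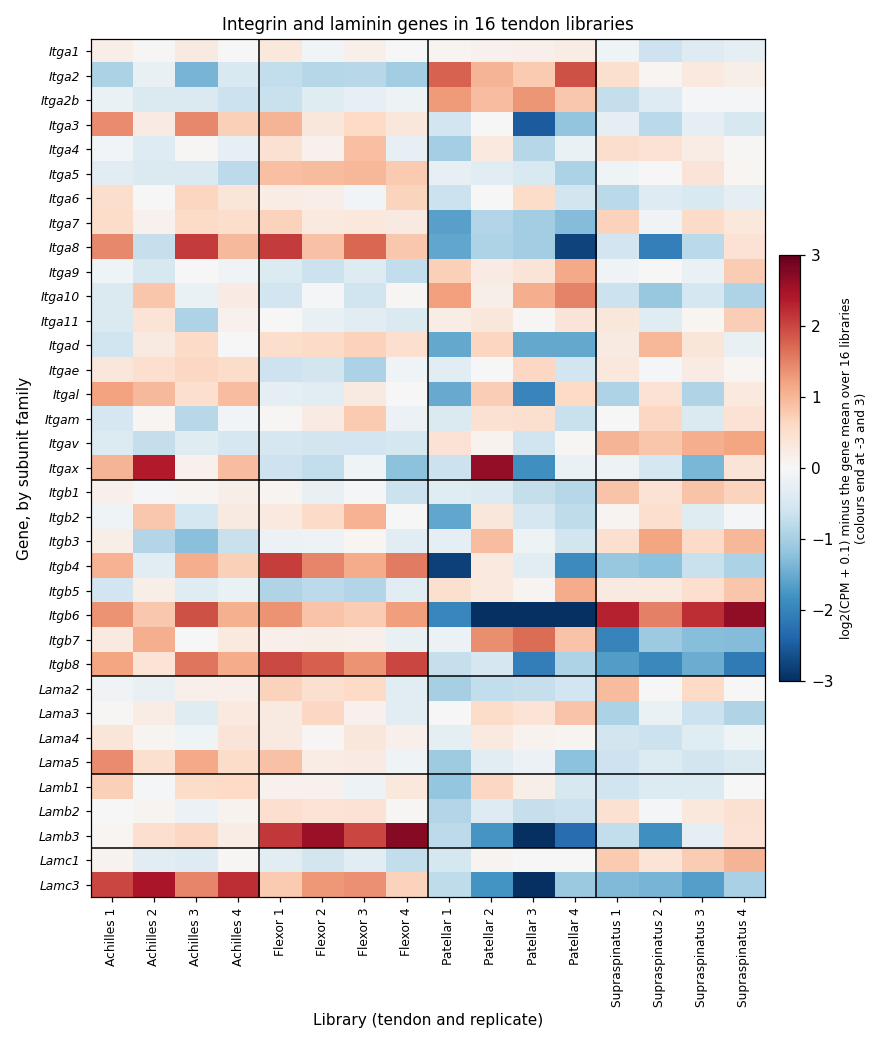
Each row is 1 of 35 tested members and each column 1 of the 16 libraries. The colour is log2(CPM + 0.1) minus the gene's mean over the 16 libraries, red above it and blue below it. The Patellar columns are dark blue for Itgb6, the Flexor columns red for Lamb3, and the Supraspinatus columns red for Itgav, Itgb1 and Lamc1.

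Of the collagen-binding alpha chains, which pair with beta 1, Itga2 and Itga10 were highest in Patellar and Itga11 did not pass over the 4 tendons. Itga2, a receptor for fibrillar collagen, was at 55.9, 33.1, 28.3 and 61.6 CPM in Patellar replicates 1 to 4, the order used for every list of 4 values here. It was at 8.43, 14.1, 6.19 and 12.0 in Achilles, 9.84, 9.01, 9.23 and 7.97 in Flexor and 22.8, 17.0, 20.03 and 18.6 in Supraspinatus. No library of Patellar overlapped those of another tendon, and the Supraspinatus libraries lay between Patellar and the other 2 tendons. Itga2 was 4.39-fold higher in Patellar than in Achilles (log2 fold change 2.13 ± 0.27, adjusted p = 2e-05), 4.96-fold higher than in Flexor (2.31 ± 0.27, adjusted p = 4.3e-06) and 2.28-fold lower in Supraspinatus than in Patellar (-1.19 ± 0.26, adjusted p = 0.0011). It was also 1.92-fold higher in Supraspinatus than in Achilles (0.94 ± 0.26, adjusted p = 0.0099).

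Itga10, the collagen receptor chain best known from cartilage, was at 51.9, 24.7, 47.0 and 62.2 CPM in Patellar and 16.2, 39.3, 19.2 and 26.1 in Achilles. It was at 14.7, 21.1, 14.5 and 22.6 in Flexor and 14.1, 9.91, 15.2 and 11.48 in Supraspinatus. Patellar replicate 2 was low and Achilles replicate 2 high, so Patellar and Achilles overlapped. Itga10 was 1.84-fold higher in Patellar than in Achilles (log2 fold change 0.88 ± 0.29, adjusted p = 0.025), a call lost without Achilles replicate 1 (0.73, adjusted p = 0.074), Achilles replicate 3 (0.76, adjusted p = 0.079), Patellar replicate 1 (0.79, adjusted p = 0.06) or Patellar replicate 4 (0.69, adjusted p = 0.092). The muscle covariate also ended it (1.49, adjusted p = 0.12). Against Flexor the difference was 2.55-fold (1.35 ± 0.29, adjusted p = 0.0012), and Supraspinatus was 3.67-fold below Patellar (-1.88 ± 0.30, adjusted p = 7.4e-05). Supraspinatus was also below Achilles (-0.99 ± 0.29, adjusted p = 0.016), not past the threshold without Achilles replicate 2 (-0.70, adjusted p = 0.071) or Supraspinatus replicate 2 (-0.89, adjusted p = 0.051). The exons of Itga10 share 33.5% of their bases with Gm42957 on the same strand, and Gm42957 itself was counted at 0.137 to 2.12 CPM.

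Itga1, a receptor with a preference for type IV collagen, was lowest in Supraspinatus. Its levels were 57.9, 41.4, 48.3 and 51.9 CPM there and 62.5 to 76.1 in Achilles, 59.6 to 78.6 in Flexor and 67.6 to 73.9 in Patellar. Every Supraspinatus library was below every other library, by 1.39-fold against Achilles (log2 fold change -0.47 ± 0.12, adjusted p = 0.0056), 1.36-fold against Flexor (-0.44 ± 0.12, adjusted p = 0.0093) and 1.41-fold against Patellar (-0.50 ± 0.12, adjusted p = 0.0021). The last was not past the threshold with the muscle covariate (-0.61, adjusted p = 0.14). Itga1 and Itga2 are neighbours on chromosome 13, 21.0 kb apart on the same strand with no coding gene between, and Itga2 had its lowest level in other tendons than Itga1. Itga11, a receptor for type I collagen on fibroblasts, ranged from 26.1 to 66.4 CPM in Achilles, 37.0 to 49.8 in Flexor, 50.7 to 65.2 in Patellar and 38.3 to 83.2 in Supraspinatus. The ranges overlapped in every pair but Patellar and Flexor. Per kilobase, Itga11 held the largest part of the collagen-binding alpha chains in each tendon, from 38.5% ± 6.77 in Patellar to 58.5% ± 6.62 in Supraspinatus.

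The mean sum of tendon markers, like Itga2 and Itga10, was highest in Patellar. The 8 tendon markers summed to 19510 to 35100 CPM in Patellar, 6015 to 16430 in Achilles, 12430 to 13450 in Flexor and 6073 to 24300 in Supraspinatus, and in Patellar 5 of the 8 were higher than in Achilles and 6 of the 8 than in Flexor (edgeR). In Achilles, replicates 2 and 4 had the highest tendon sums and the highest Itga2, Itga10 and Itga11. In Patellar, replicate 1 had the highest tendon sum and replicate 4 the highest level of each of these members. In Supraspinatus, replicate 4 had the highest tendon sum and Itga11, but replicate 1 the highest Itga2 and replicate 3 the highest Itga10. Of the 8 tendon markers, 3 were higher and 0 lower in Supraspinatus than in Achilles (edgeR), a comparison where Itga2 was higher and Itga10 lower. The part of tendon cell content in the collagen-binding chains was not tested.

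The laminin-binding alpha chains were lower in Patellar or in Supraspinatus. Itga7, the laminin receptor chain of muscle fibres and of the muscle-tendon junction, was at 58.5, 98.9, 88.2 and 73.1 CPM in Patellar. It was at 267, 199.7, 269.5 and 259 in Achilles, 295, 223, 224 and 218 in Flexor and 293, 169, 269.6 and 226 in Supraspinatus. The Patellar libraries were below all others, while the remaining 3 tendons overlapped. Itga7 was 3.12-fold lower in Patellar than in Achilles (log2 fold change -1.64 ± 0.19, adjusted p = 1.3e-05), 3.01-fold lower than in Flexor (-1.59 ± 0.19, adjusted p = 7.1e-06) and 3.01-fold higher in Supraspinatus than in Patellar (1.59 ± 0.19, adjusted p = 5.5e-06). The muscle markers were also lowest in Patellar. Within Patellar their sums were 12110, 632, 1283 and 4079 CPM in replicates 1 to 4, the inverse order of Itga7 in these 4 libraries, and the part of muscle RNA in the difference was not tested. With the muscle covariate, which is nearly set by tendon, Patellar minus Achilles was -2.24, adjusted p = 0.0054.

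Itga3, a laminin receptor of epithelia, was at 21.6, 9.53, 22.1 and 13.3 CPM in Achilles, 10.2 to 16.4 in Flexor, 5.35, 8.11, 1.35 and 3.498 in Patellar and 4.57 to 6.69 in Supraspinatus. It was 3.59-fold lower in Patellar (log2 fold change -1.84 ± 0.40, adjusted p = 0.0019) and 2.81-fold lower in Supraspinatus (-1.49 ± 0.39, adjusted p = 0.0081) than in Achilles, and 2.66-fold lower in Patellar than in Flexor (-1.41 ± 0.39, adjusted p = 0.0072). Both Patellar calls were lost with the muscle covariate (-1.80, adjusted p = 0.19 against Achilles and -1.36, adjusted p = 0.28 against Flexor). Itga6, a laminin receptor chain of endothelium, epithelium and nerve sheath, was at 23.9 to 34.3 CPM in Supraspinatus, 41.8 to 64.6 in Achilles, 39.5 to 66.0 in Flexor and 26.7 to 60.8 in Patellar. It was 1.82-fold lower in Supraspinatus than in Achilles (-0.87 ± 0.24, adjusted p = 0.01) and 1.68-fold lower than in Flexor (-0.75 ± 0.23, adjusted p = 0.027). The Flexor difference missed the threshold without Flexor replicate 4 (-0.57, adjusted p = 0.12), Supraspinatus replicate 1 (-0.65, adjusted p = 0.087) or Supraspinatus replicate 3 (-0.75, adjusted p = 0.059).

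Of the alpha chains that bind the RGD motif of fibronectin and related ligands, Itga5 was highest in Flexor and Itgav in Supraspinatus. Itga5, the main fibronectin receptor chain, was at 311, 319, 329 and 288 CPM in Flexor. It was at 133, 123, 123 and 96.0 in Achilles, 141, 133, 120.2 and 86.1 in Patellar and 152, 164, 218 and 173 in Supraspinatus. All Flexor libraries were above every other library, Supraspinatus came next, and Achilles and Patellar overlapped almost wholly. The Flexor level was 2.63-fold that of Achilles (log2 fold change 1.39 ± 0.16, adjusted p = 3.8e-05), 2.60-fold that of Patellar (Patellar minus Flexor -1.38 ± 0.16, adjusted p = 4.4e-06) and 1.76-fold that of Supraspinatus (Supraspinatus minus Flexor -0.82 ± 0.16, adjusted p = 0.00096). Supraspinatus was in turn 1.49-fold above Achilles (0.57 ± 0.16, adjusted p = 0.01) and 1.47-fold above Patellar (0.56 ± 0.16, adjusted p = 0.0069). The last of these was not past the threshold with the muscle covariate (0.53, adjusted p = 0.33), and the Flexor minus Achilles difference was 1.39, adjusted p = 3.1e-05 with it.

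Itgav, the alpha v chain that binds vitronectin and latent TGF-beta with several beta partners, was at 96.7, 84.8, 101 and 107 CPM in Supraspinatus. It was at 35.9, 29.1, 36.9 and 33.5 in Achilles, 33.5, 32.3, 31.7 and 32.7 in Flexor and 64.3, 51.3, 31.3 and 48.7 in Patellar. The 4 Supraspinatus libraries were above the other 12, and Patellar spread from within the Achilles range to well above it. Itgav was 2.88-fold higher in Supraspinatus than in Achilles (log2 fold change 1.53 ± 0.16, adjusted p = 6.6e-06), 2.99-fold higher than in Flexor (1.58 ± 0.16, adjusted p = 2.6e-06) and 1.99-fold higher than in Patellar (0.99 ± 0.16, adjusted p = 9.1e-05). The Patellar difference was lost with the muscle covariate (0.33, adjusted p = 0.52). Patellar was 1.45-fold above Achilles (0.53 ± 0.16, adjusted p = 0.016), or 0.34, adjusted p = 0.083 without Patellar replicate 1, and 1.5-fold above Flexor (0.59 ± 0.16, adjusted p = 0.0064), or 0.38, adjusted p = 0.042 without that library.

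Itga8, a receptor chain of smooth muscle and mesenchymal cells whose ligand is nephronectin, was at 41.5, 9.33, 65.7 and 30.0 CPM in Achilles and 64.9, 28.1, 50.6 and 26.6 in Flexor. It was at 5.12, 7.90, 7.33 and 2.13 in Patellar and 10.2, 3.59, 8.66 and 20.4 in Supraspinatus. Achilles replicate 2 was near the Supraspinatus values, so only those 2 tendons overlapped among the pairs called. Itga8 was 6.50-fold lower in Patellar than in Achilles (log2 fold change -2.70 ± 0.59, adjusted p = 0.002), 7.55-fold lower than in Flexor (-2.92 ± 0.60, adjusted p = 0.00075) and 3.97-fold lower in Supraspinatus than in Flexor (-1.99 ± 0.57, adjusted p = 0.016). Both Patellar calls were lost with the muscle covariate (-2.96, adjusted p = 0.19 and -3.17, adjusted p = 0.13). Supraspinatus minus Achilles (-1.77 ± 0.57, adjusted p = 0.025) missed the threshold without Achilles replicate 1 or 3 or Supraspinatus replicate 1, 2 or 3, with log2 fold changes of -1.72, -1.33, -1.74, -1.48 and -1.68 in that order and adjusted p from 0.052 to 0.089.

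Itga2b, the chain of the platelet fibrinogen receptor, was at 17.3, 13.5, 17.9 and 12.4 CPM in Patellar, 4.52 to 6.13 in Achilles, 4.44 to 6.35 in Flexor and 4.27 to 6.90 in Supraspinatus. Every Patellar library was above the other 12, by 2.90-fold against Achilles (log2 fold change 1.53 ± 0.19, adjusted p = 2.2e-05), 2.75-fold against Flexor (1.46 ± 0.19, adjusted p = 1.5e-05) and 2.61-fold against Supraspinatus (Supraspinatus minus Patellar -1.38 ± 0.19, adjusted p = 2e-05). The 6 platelet markers summed to 46.8 to 72.8 CPM in Patellar (20.7 to 60.7 in Achilles, 57.4 to 131 in Flexor and 49.9 to 194 in Supraspinatus), and 1 of the 6 was at 0 in every Patellar library. Nearly all of the sum was Pf4, at a mean of 62.9 CPM in Patellar, 44.9 in Achilles, 86.5 in Flexor and 88.5 in Supraspinatus. The next most abundant, Gp1ba and Ppbp, had means of at most 0.784 CPM, so the sum is close to a measure of 1 gene. The part of platelets in the Itga2b difference was not tested.

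**Figure D2:**
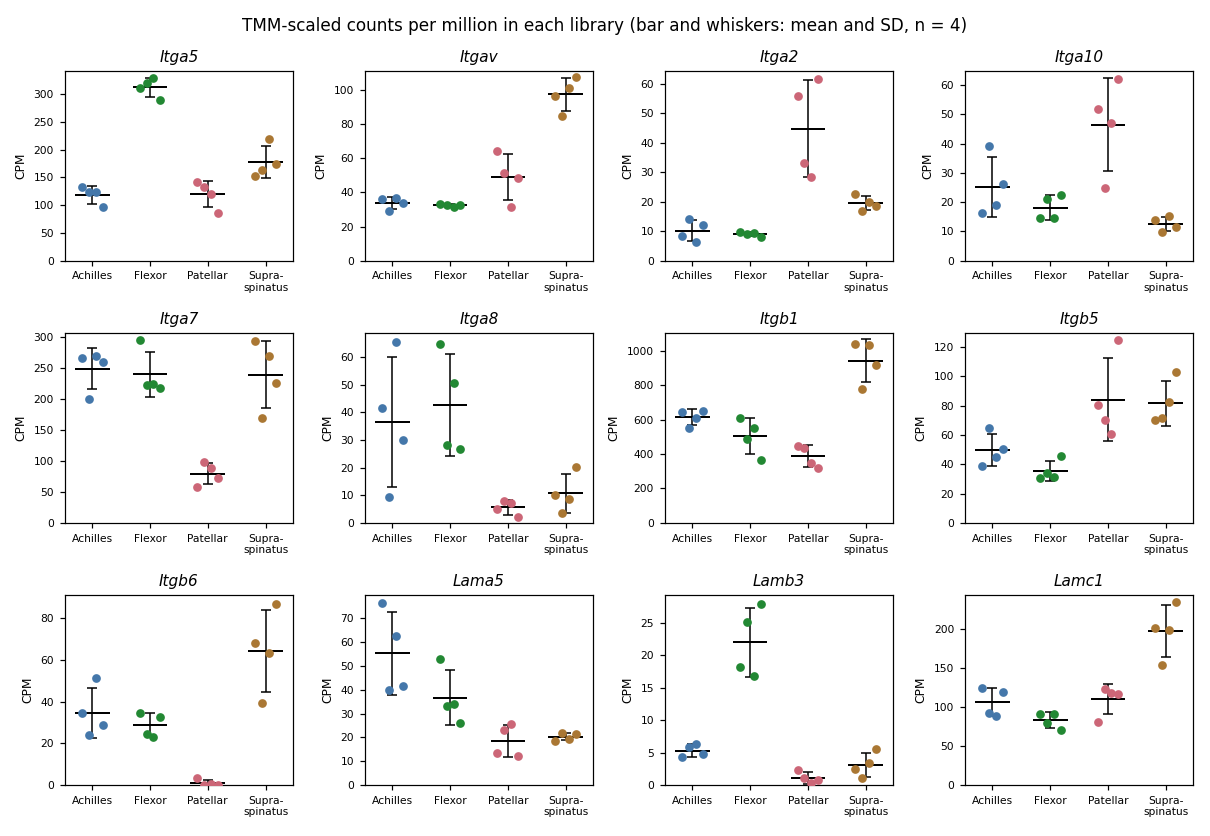
Each panel plots the CPM of 1 member (axis from 0) in the 4 libraries of each tendon, with the mean and SD as bar and whiskers (n = 4). The 4 Flexor points of Itga5 lie between 288 and 329, above all others, the Patellar points of Itgb6 lie between 0.108 and 3.42, and the Supraspinatus points of Itgav lie between 84.8 and 107.

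Itga9, a receptor for tenascin-C and osteopontin, was at 31.7, 23.1, 25.3 and 42.6 CPM in Patellar, 13.8 to 19.2 in Achilles, 11.7 to 14.8 in Flexor and 17.98, 19.5, 16.8 and 33.0 in Supraspinatus. It was 1.79-fold higher in Patellar than in Achilles (log2 fold change 0.84 ± 0.22, adjusted p = 0.0073) and 2.29-fold higher than in Flexor (1.19 ± 0.22, adjusted p = 0.00035). Supraspinatus minus Flexor (0.70 ± 0.22, adjusted p = 0.026) rested on Supraspinatus replicate 4, the highest library, without which it was 0.43, adjusted p = 0.11. That call was also lost without Flexor replicate 1 (0.72, adjusted p = 0.051), 2 (0.67, adjusted p = 0.069) or 4 (0.66, adjusted p = 0.068). Itga4, which binds VCAM-1 and fibronectin on leukocytes and other cells, was at 6.21 to 13.9 CPM in Flexor and 3.58 to 9.04 in Patellar, with overlap. Its 1 call, Patellar minus Flexor (-0.73 ± 0.28, adjusted p = 0.041), was lost when any of 7 libraries was left out (Achilles replicate 1, 2 or 4, Flexor replicate 1 or 3, or Patellar replicate 1 or 3), with log2 fold changes from -0.75 to -0.51 and adjusted p from 0.053 to 0.16. It was -1.62, adjusted p = 0.084 with the muscle covariate, and 8.04% of the exon bases of Itga4 overlap Cerkl on the opposite strand.

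The leukocyte alpha chains were low in all tendons. Itgam, of macrophages and neutrophils, was at 5.28 ± 1.45 CPM in Achilles, 6.74 ± 2.70 in Patellar, 7.83 ± 2.41 in Flexor and 7.57 ± 2.36 in Supraspinatus (mean ± SD, n = 4). Itgal, of lymphocytes and myeloid cells, was at 1.24 to 2.07 CPM in Achilles and 0.139 to 1.47 in the rest. Itgax, of dendritic cells and macrophages, was at 0.207, 2.89, 0.0347 and 0.323 CPM in Patellar, where replicate 2 stood apart, and at 0.880, 2.39, 0.429 and 0.812 in Achilles, where replicate 2 was also the highest. Itgad was at or below 0.471 CPM everywhere and at 0 in 3 Patellar libraries, where the approximate limit used for a count of 0 is at most 0.104 CPM. A small part of its exon bases (1.55%) overlaps Cox6a2, a muscle gene on the opposite strand at a mean of 72.4 CPM in Patellar and 1099 in Supraspinatus. None of these 4 passed in any comparison (edgeR), and Itgax alone had an unadjusted p under 0.05, in Flexor minus Achilles (0.0174), Supraspinatus minus Achilles (0.0477) and Patellar minus Flexor (0.0354). Itgae, of tissue-resident T cells, passed in 1, being 2.19-fold lower in Flexor (0.725, 0.760, 0.553 and 1.06 CPM) than in Achilles (1.501, 1.70, 1.84 and 1.75 CPM), log2 fold change -1.13 ± 0.29, adjusted p = 0.013. Without Flexor replicate 3 it was -0.998, adjusted p = 0.055. Itgam, Itgax and Itgad are neighbours on chromosome 7, 11.1 and 3.7 kb apart, and 68.7% of the exon bases of Itgam overlap Gm49368 on the same strand, so reads could be split between them. The 12 leukocyte markers summed to 294 to 1560 CPM over all 16 libraries, with overlap between every pair of tendons.

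Among the beta chains, Itgb1, the common partner of the collagen, laminin and fibronectin receptors, was highest in Supraspinatus at 1041, 776, 1034 and 915 CPM. It was at 642, 549, 611 and 650.1 in Achilles, 609.7, 488, 552 and 368 in Flexor and 448, 434, 349 and 318 in Patellar. No Supraspinatus library overlapped the others, and no Patellar library overlapped Achilles. Itgb1 was 1.54-fold higher in Supraspinatus than in Achilles (log2 fold change 0.62 ± 0.17, adjusted p = 0.01), 1.87-fold higher than in Flexor (0.90 ± 0.17, adjusted p = 0.00084) and 2.43-fold higher than in Patellar (1.28 ± 0.17, adjusted p = 1.3e-05), and 1.58-fold lower in Patellar than in Achilles (-0.66 ± 0.17, adjusted p = 0.0059). The Patellar differences were lost with the muscle covariate (1.04, adjusted p = 0.078 for Supraspinatus minus Patellar and -0.45, adjusted p = 0.42 for Patellar minus Achilles). Per kilobase Itgb1 led the beta chains in every tendon, with 231 ± 30.5 RPKM in Supraspinatus, 150.2 ± 11.2 in Achilles, 124 ± 25.4 in Flexor and 95.0 ± 15.6 in Patellar.

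The beta partners of alpha v had unlike patterns. Itgb6, which with alpha v activates latent TGF-beta and is best known from epithelia, was nearly missing from Patellar, at 3.42, 0.234, 0.417 and 0.108 CPM. It was at 34.6, 24.1, 51.4 and 28.8 in Achilles, 34.5, 24.7, 23.1 and 32.7 in Flexor and 68.0, 39.1, 63.5 and 86.7 in Supraspinatus. Its promoter window is the one with 3 E-boxes printed above, the last of them inside the GENCODE gene. Itgb6 was 33.1-fold lower in Patellar than in Achilles (log2 fold change -5.05 ± 0.70, adjusted p = 5.1e-05), 27.5-fold lower than in Flexor (-4.78 ± 0.69, adjusted p = 3.7e-05) and 61.4-fold higher in Supraspinatus than in Patellar (5.94 ± 0.72, adjusted p = 5.6e-06). These were the largest differences of any of the 36 members in those 3 comparisons. Patellar replicate 1 was the highest of its tendon, and without it the 3 log2 fold changes were -7.20, adjusted p = 1e-07 against Achilles, -6.94, adjusted p = 4.5e-08 against Flexor and 8.07, adjusted p = 1.3e-08 for Supraspinatus minus Patellar. The same library had the highest muscle marker sum of the Patellar libraries (12110 CPM against 632 to 4079), and with the muscle covariate the 3 calls were lost (-1.58, adjusted p = 0.22, -1.40, adjusted p = 0.24 and 2.06, adjusted p = 0.13 in the same order). The part of other cells in the difference was not tested. The 9 epidermis markers, which would mark keratinocytes, summed to 10.8 to 11.8 CPM in Achilles and 12.4 to 13.4 in Flexor. They summed to 13.4 to 31.4 in Patellar, where Itgb6 was lowest, and 15.8 to 21.98 in Supraspinatus, where it was highest. Different markers carried these sums. Trp63 was at a mean of 12.85 CPM in Supraspinatus and 7.19 in Patellar. Krt15 was at 0 in every Supraspinatus library and at 0.130 to 14.6 CPM in Patellar.

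Itgb5, the vitronectin receptor partner, was at 80.5, 70.3, 60.9 and 125 CPM in Patellar and 70.1, 71.3, 82.2 and 103 in Supraspinatus. It was at 38.9, 64.9, 45.0 and 50.4 in Achilles and 30.9, 33.7, 31.4 and 45.3 in Flexor. All Patellar and Supraspinatus libraries were above all Flexor libraries, by 2.38-fold (log2 fold change 1.25 ± 0.22, adjusted p = 0.00021) and 2.31-fold (1.21 ± 0.22, adjusted p = 0.00062). Against Achilles both were called (0.76 ± 0.22, adjusted p = 0.012 for Patellar and 0.71 ± 0.22, adjusted p = 0.02 for Supraspinatus). The Patellar call was lost without Patellar replicate 4 (0.48, adjusted p = 0.069) or with the muscle covariate (1.01, adjusted p = 0.17), and the Supraspinatus call without Achilles replicate 1 (0.61, adjusted p = 0.063) or Supraspinatus replicate 4 (0.58, adjusted p = 0.063).

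Itgb3, of platelets, osteoclasts and angiogenic vessels, was at 28.6, 46.5, 30.5 and 40.9 CPM in Supraspinatus and 23.6, 11.2, 8.57 and 13.0 in Achilles, a difference of 2.60-fold (log2 fold change 1.38 ± 0.32, adjusted p = 0.0037). In Flexor it was at 16.6 to 21.3 and in Patellar at 14.1 to 39.0, where replicate 2 was the highest. Supraspinatus minus Flexor (0.97 ± 0.32, adjusted p = 0.032) was lost without any of the 4 Flexor libraries or Supraspinatus replicate 2 or 4, with log2 fold changes from 0.84 to 1.05 and adjusted p from 0.05 to 0.092.

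Itgb8, another activator of latent TGF-beta that is known from nerve and glia, was lowest in Supraspinatus, at 2.21, 1.83, 2.53 and 1.61 CPM. It was at 4.46, 5.13, 1.67 and 3.79 in Patellar, 16.7, 9.79, 22.3 and 15.9 in Achilles and 29.3, 25.4, 18.7 and 29.6 in Flexor. Achilles and Flexor were far above Patellar and Supraspinatus, and 1 Patellar library fell into the Supraspinatus range. Itgb8 was 12.6-fold lower in Supraspinatus than in Flexor (log2 fold change -3.65 ± 0.32, adjusted p = 5.2e-07) and 7.91-fold lower than in Achilles (-2.98 ± 0.31, adjusted p = 5.7e-06). In Patellar it was 6.78-fold lower than in Flexor (-2.76 ± 0.31, adjusted p = 3.5e-06) and 4.26-fold lower than in Achilles (-2.09 ± 0.30, adjusted p = 7.8e-05), the latter lost with the muscle covariate (-1.64, adjusted p = 0.12). Supraspinatus minus Patellar (-0.89 ± 0.30, adjusted p = 0.02) was lost with that covariate (-1.39, adjusted p = 0.17) and without Patellar replicate 1 or 2 or Supraspinatus replicate 2 or 4, with log2 fold changes from -0.83 to -0.72 and adjusted p from 0.05 to 0.068.

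Itgb4, the partner of alpha 6 in hemidesmosomes and on myelinating Schwann cells, had the same split of tendons. It was at 136, 89.5, 70.2 and 96.1 CPM in Flexor and 67.2, 26.1, 68.6 and 53.5 in Achilles. It was at 4.59, 39.6, 25.7 and 8.56 in Patellar and 14.8, 13.7, 20.3 and 16.6 in Supraspinatus. Flexor did not overlap Patellar or Supraspinatus, whereas Patellar replicate 2 reached into the Achilles range. Itgb4 was 5.99-fold lower in Supraspinatus than in Flexor (log2 fold change -2.58 ± 0.51, adjusted p = 0.0011), 4.98-fold lower in Patellar than in Flexor (-2.32 ± 0.50, adjusted p = 0.0012) and 3.30-fold lower in Supraspinatus than in Achilles (-1.72 ± 0.49, adjusted p = 0.013). Patellar minus Achilles (-1.45 ± 0.49, adjusted p = 0.027) was lost without Achilles replicate 1 (-1.33, adjusted p = 0.066), Achilles replicate 3 (-1.32, adjusted p = 0.068) or Patellar replicate 4 (-1.24, adjusted p = 0.065), and without Patellar replicate 2 was -2.04, adjusted p = 0.0037. With the muscle covariate the Patellar differences were larger, -4.83, adjusted p = 0.0074 against Achilles and -5.65, adjusted p = 0.002 against Flexor.

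Schwann cell markers moved with Itgb4 and Itgb8. The 9 Schwann and nerve markers summed to 863 to 6024 CPM in Achilles, 1876 to 5026 in Flexor, 515 to 794 in Patellar and 453 to 537 in Supraspinatus, and all 9 were lower in Patellar and in Supraspinatus than in either of the other 2 tendons (edgeR). In Achilles, replicate 2 had the lowest Schwann sum and also the lowest Itgb4, Itgb8 and Itga8. In Patellar, replicate 1 had the highest Schwann sum (794.5 CPM) and the lowest Itgb4, and the order of Itgb4 there was that of the endothelial marker sum, which was 249, 822, 651 and 368 CPM in replicates 1 to 4. The 9 pericyte and smooth muscle markers summed to 1147 to 4516 CPM in Achilles, 2246 to 3889 in Flexor, 641 to 1068 in Patellar and 956 to 1202 in Supraspinatus, the order that Itga8 also had between the 2 pairs of tendons. The part of any of these cells in the differences of Itga8, Itgb4 and Itgb8 was not tested.

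**Figure D3:**
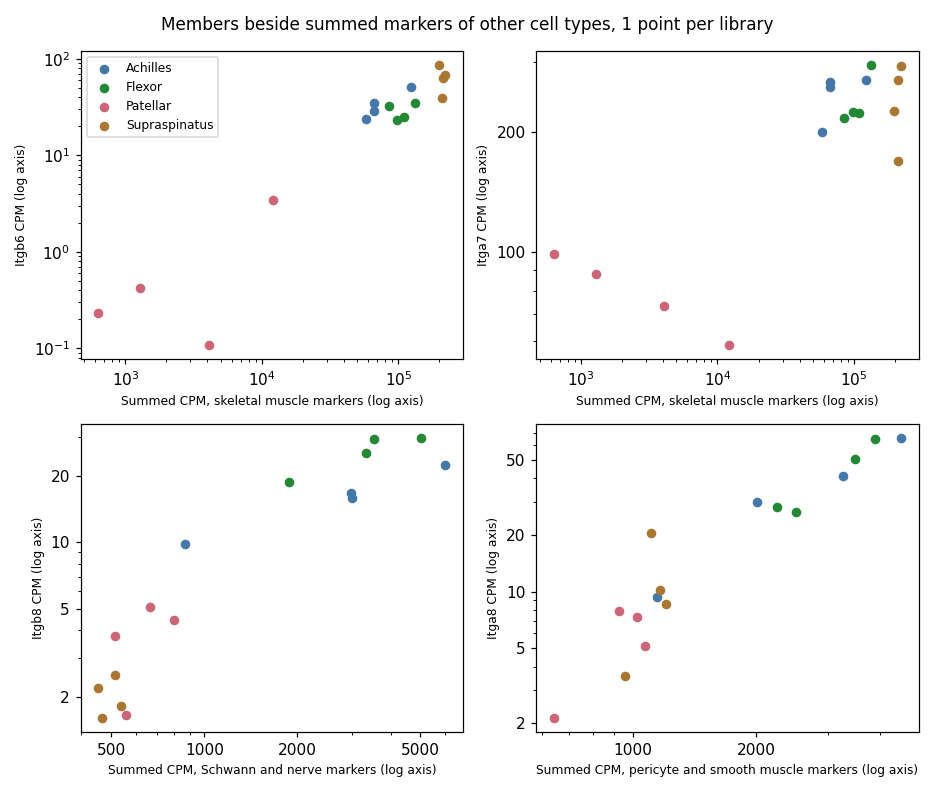
Each point is 1 of the 16 libraries, coloured by tendon. The x axes give the summed CPM of skeletal muscle, Schwann and nerve, or pericyte and smooth muscle markers and the y axes the CPM of Itgb6, Itga7, Itgb8 or Itga8, all on log axes. Patellar points lie lowest for Itgb6 and Itga7 at muscle sums of 632 to 12110 CPM, and Supraspinatus and Patellar points lie lowest for Itgb8.

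The beta chains of leukocytes were called in few comparisons or at low levels. Itgb2, the common beta chain of the leukocyte integrins, was at 6.48 to 24.4 CPM in Patellar and 19.3 to 39.4 in Flexor. The ranges overlapped, and its 1 call, Patellar minus Flexor (-0.99 ± 0.36, adjusted p = 0.031), was lost without Flexor replicate 2 (-0.98, adjusted p = 0.056), Flexor replicate 3 (-0.78, adjusted p = 0.11), Patellar replicate 1 (-0.80, adjusted p = 0.063) or Patellar replicate 4 (-0.94, adjusted p = 0.063). With the muscle covariate it was -3.28, adjusted p = 0.0023. Itgb7, of gut-homing and tissue-resident lymphocytes, was lowest in Supraspinatus at 0.671, 1.35, 1.17 and 1.16 CPM. It was at 2.67, 8.07, 9.76 and 5.52 in Patellar, 3.03 to 6.52 in Achilles and 2.56 to 3.42 in Flexor. Every Supraspinatus library was below the other 12, by 5.97-fold against Patellar (-2.58 ± 0.37, adjusted p = 2.6e-05), 3.90-fold against Achilles (-1.96 ± 0.36, adjusted p = 0.00064) and 2.91-fold against Flexor (-1.54 ± 0.36, adjusted p = 0.004). Patellar minus Flexor (1.03 ± 0.35, adjusted p = 0.021) was lost without Flexor replicate 4 (0.97, adjusted p = 0.053) or Patellar replicate 3 (0.73, adjusted p = 0.083). It turned round with the muscle covariate (-1.18, adjusted p = 0.18), which also ended the Supraspinatus minus Patellar call (-0.13, adjusted p = 0.91). Of the 12 leukocyte markers, 6 were lower and 1 higher in Supraspinatus than in Patellar, 3 lower and 1 higher than in Achilles, and 1 lower and 1 higher than in Flexor (edgeR). Their mean sum was 846 CPM in Supraspinatus, 834 in Flexor, 714 in Patellar and 591 in Achilles. The part of leukocytes in the Itgb7 differences was not tested.

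Among the laminin alpha chains, Lama2 was lowest in Patellar, Lama3 and Lama4 in Supraspinatus, and Lama5 in Patellar and Supraspinatus. Lama2, the chain of muscle and nerve basement membranes, was at 44.8, 53.3, 54.9 and 60.0 CPM in Patellar. It was at 83.2, 76.2, 98.9 and 99.1 in Achilles, 145, 125, 135 and 69.9 in Flexor and 172, 88.6, 135 and 89.5 in Supraspinatus. All Patellar libraries were below all others, by 1.68-fold against Achilles (log2 fold change -0.75 ± 0.23, adjusted p = 0.017), 2.23-fold against Flexor (-1.16 ± 0.23, adjusted p = 0.00062) and 2.28-fold against Supraspinatus (Supraspinatus minus Patellar 1.19 ± 0.23, adjusted p = 0.00046). The 3 calls were lost with the muscle covariate, at nearly the same log2 fold changes (-0.63, adjusted p = 0.48, -1.04, adjusted p = 0.21 and 1.06, adjusted p = 0.24).

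Lama4, the chain of vessel, nerve and fat cell basement membranes, was at 79.6, 74.7, 90.4 and 107 CPM in Supraspinatus, 106 to 152 in Achilles, 119.8 to 149 in Flexor and 97.5 to 144 in Patellar. The Supraspinatus range met those of Achilles and Patellar but not that of Flexor. It was lower in Supraspinatus by 1.51-fold against Achilles (log2 fold change -0.60 ± 0.15, adjusted p = 0.0065) and 1.54-fold against Flexor (-0.62 ± 0.15, adjusted p = 0.006). Against Patellar (-0.48 ± 0.15, adjusted p = 0.014) the call was lost without Supraspinatus replicate 1 (-0.42, adjusted p = 0.051) or 2 (-0.40, adjusted p = 0.056), and the direction turned with the muscle covariate (0.25, adjusted p = 0.62). Lama5, the main chain of mature endothelial and epithelial basement membranes, was at 76.5, 40.0, 62.7 and 41.7 CPM in Achilles and 53.1, 33.4, 33.9 and 26.1 in Flexor. It was at 13.7, 23.1, 25.5 and 12.1 in Patellar and 18.5, 21.7, 19.4 and 21.3 in Supraspinatus, below every library of the first 2 tendons.

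Lama5 was 2.97-fold lower in Patellar (log2 fold change -1.57 ± 0.27, adjusted p = 0.00033) and 2.73-fold lower in Supraspinatus (-1.45 ± 0.27, adjusted p = 0.00071) than in Achilles. Against Flexor it was 1.97-fold lower in Patellar (-0.98 ± 0.27, adjusted p = 0.0064), or -1.76, adjusted p = 0.056 with the muscle covariate. It was 1.81-fold lower in Supraspinatus than in Flexor (-0.86 ± 0.27, adjusted p = 0.025), lost without Flexor replicate 1 (-0.65, adjusted p = 0.083), Supraspinatus replicate 1 (-0.81, adjusted p = 0.067) or Supraspinatus replicate 3 (-0.83, adjusted p = 0.063). The 12 endothelial markers summed to 876 to 1163 CPM in Achilles, 572 to 779 in Flexor, 249 to 822 in Patellar and 419 to 461 in Supraspinatus, and 8 and 11 of the 12 were lower than in Achilles in Patellar and in Supraspinatus (edgeR). The 8 adipocyte markers summed to 6037 to 10710 CPM in Achilles and 8533 to 20210 in Patellar but 639 to 1040 in Flexor, where Lama4 was as high, and 664 to 2246 in Supraspinatus. The part of either cell type in the Lama5 and Lama4 differences was not tested.

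Lama3, the alpha chain of the epithelial laminin-332, was at 2.66, 4.60, 3.32 and 2.79 CPM in Supraspinatus, 4.10 to 6.46 in Achilles, 4.18 to 8.21 in Flexor and 5.24 to 9.63 in Patellar. The Supraspinatus level was 2.21-fold below Patellar (log2 fold change -1.15 ± 0.26, adjusted p = 0.0014), or -0.65, adjusted p = 0.5 with the muscle covariate. Its difference from Achilles (-0.73 ± 0.25, adjusted p = 0.036) was lost when any of 6 libraries was left out (Achilles replicate 1, 2 or 4, or Supraspinatus replicate 1, 3 or 4), with log2 fold changes from -0.74 to -0.63 and adjusted p from 0.068 to 0.11, and with the muscle covariate (-0.67, adjusted p = 0.056). Its difference from Flexor (-0.87 ± 0.25, adjusted p = 0.017) was lost without Flexor replicate 2 (-0.70, adjusted p = 0.071), Supraspinatus replicate 1 (-0.78, adjusted p = 0.059) or Supraspinatus replicate 4 (-0.79, adjusted p = 0.051).

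Of the laminin beta chains, Lamb3 was the highest in Flexor and Lamb2 the lowest in Patellar. Lamb3, the beta chain of laminin-332, was at 18.1, 25.1, 16.8 and 27.9 CPM in Flexor. It was at 4.28, 5.82, 6.39 and 4.81 in Achilles, 2.34, 1.12, 0.243 and 0.753 in Patellar and 2.40, 1.06, 3.38 and 5.53 in Supraspinatus. The Flexor libraries were above all 12 others and the Patellar libraries below those of Achilles. Lamb3 was 4.13-fold higher in Flexor than in Achilles (log2 fold change 2.05 ± 0.48, adjusted p = 0.0086), 19.3-fold lower in Patellar than in Flexor (-4.27 ± 0.54, adjusted p = 1.1e-05) and 7.10-fold lower in Supraspinatus than in Flexor (-2.83 ± 0.50, adjusted p = 0.00047). Patellar was also 4.67-fold below Achilles (-2.23 ± 0.51, adjusted p = 0.0027), or -0.97, adjusted p = 0.53 with the muscle covariate. Without Patellar replicate 1, the highest of its tendon, Patellar minus Flexor was -4.92, adjusted p = 4.3e-06 and Patellar minus Achilles -2.87, adjusted p = 0.00049.

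Supraspinatus minus Patellar for Lamb3 (1.44 ± 0.50, adjusted p = 0.023) was 2.07, adjusted p = 0.0027 without Patellar replicate 1. It was lost without Patellar replicate 4 (1.3, adjusted p = 0.063) or Supraspinatus replicate 4 (1.02, adjusted p = 0.097) and with the muscle covariate (0.05, adjusted p = 0.98). Lama3, the alpha chain of laminin-332, was at 4.18 to 8.21 CPM in Flexor and 4.10 to 6.46 in Achilles, a difference not past the threshold.

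Lamb2, the beta chain of muscle, nerve and vessel laminins, was at 231, 324, 262 and 273 CPM in Patellar. It was at 426, 448, 374 and 461 in Achilles, 602, 566, 570.5 and 439 in Flexor and 586, 418, 532 and 584 in Supraspinatus. Every Patellar library was below the other 12, by 1.57-fold against Achilles (log2 fold change -0.65 ± 0.15, adjusted p = 0.003), 2-fold against Flexor (-0.997 ± 0.15, adjusted p = 5.4e-05) and 1.94-fold against Supraspinatus (Supraspinatus minus Patellar 0.96 ± 0.15, adjusted p = 6.6e-05). All 3 passed with the muscle covariate, at -1.06, adjusted p = 0.036, -1.41, adjusted p = 0.0069 and 1.42, adjusted p = 0.012. Lamb1, the beta chain found in most early and vessel laminins, was at 35.2 to 53.1 CPM in Supraspinatus and 51.5 to 87.5 in Achilles, with overlap. That 1 call (-0.82 ± 0.28, adjusted p = 0.034) was lost when any of 6 libraries was left out (Achilles replicate 1, 3 or 4, or Supraspinatus replicate 1, 2 or 3), with log2 fold changes from -0.80 to -0.74 and adjusted p from 0.064 to 0.094.

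Of the laminin gamma chains, Lamc1 was highest in Supraspinatus and Lamc3 in Achilles and Flexor. Lamc1, the gamma chain of nearly all basement membranes, was at 202, 154, 199 and 235 CPM in Supraspinatus. It was at 124, 91.9, 88.8 and 119 in Achilles, 91.5, 79.3, 91.2 and 69.98 in Flexor and 81.1, 123, 117 and 117 in Patellar. All 4 Supraspinatus libraries were above the other 12, by 1.86-fold against Achilles (log2 fold change 0.90 ± 0.17, adjusted p = 0.00067), 2.38-fold against Flexor (1.25 ± 0.17, adjusted p = 3.6e-05) and 1.80-fold against Patellar (0.85 ± 0.17, adjusted p = 0.00048). All 3 also passed with the muscle covariate (0.97, adjusted p = 0.00022, 1.32, adjusted p = 1.3e-05 and 1.53, adjusted p = 0.015).

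Lamc3, a gamma chain known from peripheral nerve, brain and retina, was at 6.42, 8.67, 4.34 and 7.36 CPM in Achilles and 2.69, 3.85, 4.06 and 2.52 in Flexor. It was at 0.850, 0.365, 0.0694 and 0.646 in Patellar and 0.541, 0.511, 0.415 and 0.729 in Supraspinatus. The first 2 tendons did not overlap the last 2. Lamc3 was 13.7-fold lower in Patellar (log2 fold change -3.77 ± 0.46, adjusted p = 1.7e-05) and 12.2-fold lower in Supraspinatus (-3.60 ± 0.45, adjusted p = 2.1e-05) than in Achilles, and 6.69-fold (-2.74 ± 0.44, adjusted p = 0.0001) and 5.96-fold lower (-2.57 ± 0.43, adjusted p = 0.00029) than in Flexor. The Schwann and nerve markers had the same split of tendons, and their part in the Lamc3 difference was not tested. Both Patellar calls were lost with the muscle covariate (-2.51, adjusted p = 0.07 and -1.47, adjusted p = 0.25).

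Some members set 1 tendon apart, passing with the same sign against each of the other 3 tendons. In Supraspinatus 3 members were higher throughout (Itgav, Itgb1 and Lamc1, 8.33% of 36 against 7.06% of all genes) and 5 lower (Itga1, Itgb7, Itgb8, Lama3 and Lama4, 13.9% against 5.19%). In Patellar 3 were higher (Itga2, Itga2b and Itga10, 8.33% against 10.5%) and 5 lower (Itga7, Itgb6, Lama2, Lamb2 and Lamb3, 13.9% against 14.2%), shares near those of all genes. In Flexor 2 were higher (Itga5 and Lamb3, 5.56% against 1.7%) and 0 lower (0% against 3.44%). In Achilles 0 were higher or lower, where 1.15% and 0.581% of all genes were. These 18 cases made 17 members, with Lamb3 counted in both Flexor and Patellar. With the muscle covariate a fresh count over all members gave 11 cases, some of them not among the 18. Of the 18, those that remained were Itga5 and Lamb3 in Flexor, Itga2, Itga2b, Itga7 and Lamb2 in Patellar, and Lamc1 in Supraspinatus.

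The make-up of each family was then described per kilobase, as the percent of the family's summed counts per kilobase. Exact 2-sided permutation tests of 4 against 4 libraries were run on 20 members with a mean share of at least 5% in a tendon, in 6 comparisons, 120 tests in all. The smallest exact p possible with groups of this size, 0.0286, was found in 63 of them, and 0 passed the Benjamini-Hochberg adjustment, the smallest adjusted p being 0.0544 (exact permutation). The shares are therefore given as values.

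Integrin alpha RNA was led by Itga5 and Itga7 in Achilles, Flexor and Supraspinatus, and by Itga5 and Itga11 in Patellar. Itga5 held 48.2% ± 2.97 in Flexor, 24.9% ± 2.94 in Achilles, 28.8% ± 5.10 in Patellar and 33.9% ± 4.80 in Supraspinatus (mean ± SD, n = 4). Itga7 held 31.8% ± 3.29 in Achilles, 27.7% ± 4.39 in Supraspinatus, 22.5% ± 2.08 in Flexor and 11.7% ± 2.70 in Patellar. With longest transcripts as lengths Itga7 held 38.6% and Itga5 26.3% in Supraspinatus, the reverse of the order above, while the order of these 2 was the same under both lengths in the other tendons. In Patellar, Itga7 then came before Itga11 (17.9% and 10.8%). With merged exons in Patellar the collagen-binding Itga11 held 13.7% ± 1.56, Itga10 10.7% ± 3.77 and Itga2 7.43% ± 2.75. Itgav held 8.56% ± 0.438 in Supraspinatus and 2.31% ± 0.145 in Flexor.

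Integrin beta RNA was mostly Itgb1, from 71.4% ± 6.15 in Patellar to 82.7% ± 2.83 in Supraspinatus. Itgb5 was next in Patellar with 18.1% ± 7.09, and Itgb4 in Flexor with 8.41% ± 2.10. Of the alpha v partners other than beta 1, Itgb5 held 83.9% ± 7.93 in Patellar against 61.3% ± 10.7 in Achilles. Itgb6 held 0.568% ± 0.843 in Patellar and 23.3% ± 4.93 in Supraspinatus. Itgb8 held 11.9% ± 1.68 in Flexor and 0.496% ± 0.140 in Supraspinatus.

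Laminin alpha RNA was led by Lama4 in Achilles, Flexor and Patellar, and with merged exons as lengths Lama4 and Lama2 were level in Supraspinatus. Lama4 held 64.6% ± 1.54 in Patellar and 43.8% ± 7.87 in Supraspinatus. Lama2 held 43.5% ± 9.60 in Supraspinatus, 32.1% ± 5.45 in Flexor, 25.2% ± 3.61 in Achilles and 20.8% ± 2.14 in Patellar. Lama5 held 22.04% ± 5.64 in Achilles and 10.2% ± 2.82 in Patellar. With longest transcripts as lengths Lama4 held 50.2% and Lama2 42.5% in Supraspinatus, and Lama5 held 13.2% in Achilles and 5.7% in Patellar. Lamb2 held 89.4% ± 2.18 to 94.8% ± 0.954 of the laminin beta RNA, the lowest in Achilles and the highest in Supraspinatus. Lamc1 held 82.4% ± 2.38 of the laminin gamma RNA in Flexor and 92.5% ± 2.26 in Supraspinatus. Lamc3 held 7.32% ± 2.22 in Achilles and 0.351% ± 0.0682 in Supraspinatus.

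**Figure D4:**
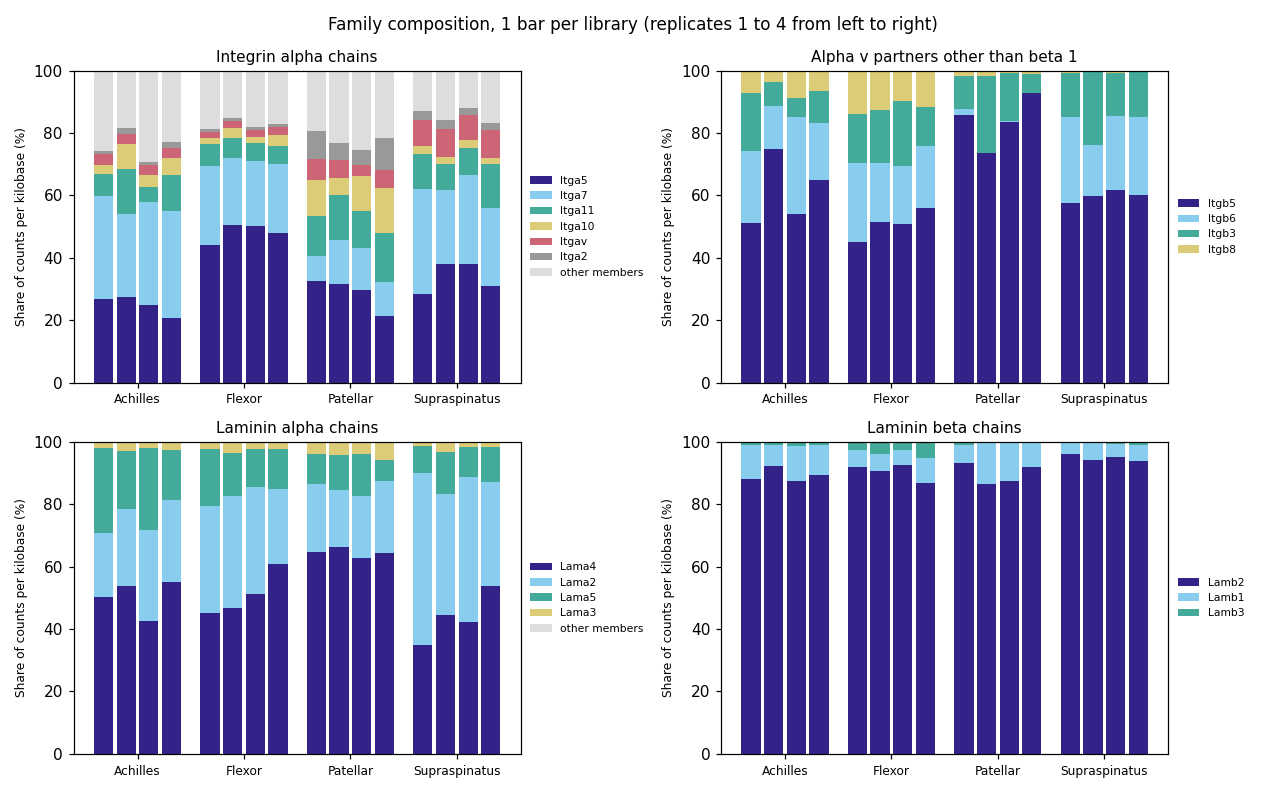
Each bar is 1 library, grouped by tendon, and its colours give the percent of the counts per kilobase of a set of chains held by each member. The sets are the integrin alpha chains, the alpha v partners other than beta 1, the laminin alpha chains and the laminin beta chains. Itga5 takes the largest part of the alpha chains in Flexor (48.2% on average), Itgb6 is nearly missing from the Patellar bars (0.568%), and Lama4 takes most of the laminin alpha RNA in Patellar (64.6%).

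Genes that work with the members were counted from lists of their own. Of 28 tested adaptors that tie integrin tails to actin, 5 were higher and 11 lower in Patellar than in Flexor, with a median log2 fold change of -0.25 beside -0.0095 for all genes. Of all genes, 24.2% were higher and 26.2% lower. Kank2, a talin-binding protein, was higher (137 ± 26.8 against 62.5 ± 5.09 CPM, log2 fold change 1.13 ± 0.15, adjusted p = 2.1e-05). Lims1, a partner of integrin-linked kinase, was lower (75.1 ± 8.78 against 127 ± 6.07 CPM, log2 fold change -0.75 ± 0.12, adjusted p = 6.9e-05), and so was Tln1, the talin that activates integrins (179 ± 15.3 against 282 ± 16.9 CPM, log2 fold change -0.66 ± 0.11, adjusted p = 0.00016). Of the same 28, 1 was higher and 2 lower in Flexor than in Achilles, 2 and 10 in Patellar than in Achilles, 2 and 5 in Supraspinatus than in Achilles, 5 and 7 in Supraspinatus than in Flexor, and 7 and 6 in Supraspinatus than in Patellar. Over all genes the shares called higher and lower in these comparisons were 6.5% and 9.72%, 17.4% and 21.1%, 16.9% and 16.7%, 14.7% and 12.4%, and 26.4% and 26.8% in the same order.

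Of 22 basement membrane partners of laminin, 9 were higher and 4 lower in Supraspinatus than in Achilles, with a median log2 fold change of 0.47 beside -0.038 for all genes, of which 16.9% were higher and 16.7% lower. Utrn, the dystrophin-related utrophin, was lower (125 ± 11.1 against 276 ± 7.26 CPM, log2 fold change -1.14 ± 0.10, adjusted p = 1.6e-06), and Bcam, a receptor for laminin alpha 5, was lower (53.5 ± 5.58 against 197 ± 58.3 CPM, log2 fold change -1.88 ± 0.33, adjusted p = 0.00039). The same list had 11 higher and 2 lower in Supraspinatus than in Patellar (26.4% and 26.8% of all genes) and 1 higher and 10 lower in Patellar than in Achilles (17.4% and 21.1% of all genes). It had 2 higher and 3 lower in Flexor than in Achilles (6.5% and 9.72%), 2 and 9 in Patellar than in Flexor (24.2% and 26.2%), and 5 and 2 in Supraspinatus than in Flexor (14.7% and 12.4%). The list holds dystrophin and the sarcoglycans, which muscle fibres express, and the muscle markers had the same order of tendons, with the highest sum in Supraspinatus and the lowest in Patellar. Their part in these counts was not tested.

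Of 21 other integrin ligands tested, 3 were higher and 9 lower in Patellar than in Achilles, with a median log2 fold change of -0.33 beside -0.014 for all genes, of which 17.4% were higher and 21.1% lower. Npnt, the nephronectin that integrin alpha 8 beta 1 binds, was lower (5.60 ± 2.53 against 57.0 ± 5.60 CPM, log2 fold change -3.35 ± 0.35, adjusted p = 5.9e-06), in the comparison where Itga8 was also lower. Spp1, osteopontin, a ligand of alpha v and alpha 9 integrins, was lower (93.2 ± 60.4 against 1505 ± 509 CPM, log2 fold change -4.01 ± 0.62, adjusted p = 0.00012), and Edil3, an RGD ligand of alpha v integrins, was higher (33.5 ± 19.3 against 5.89 ± 1.67 CPM, log2 fold change 2.50 ± 0.38, adjusted p = 0.00011). The counts of higher and lower were 0 and 2 in Flexor minus Achilles (6.5% and 9.72% of all genes), 1 and 10 in Supraspinatus minus Achilles (16.9% and 16.7%), 4 and 7 in Patellar minus Flexor (24.2% and 26.2%), 2 and 4 in Supraspinatus minus Flexor (14.7% and 12.4%), and 3 and 9 in Supraspinatus minus Patellar (26.4% and 26.8%).

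The authors' deposited table of comparisons holds 32 of the members. It called 2 of them between Flexor and Achilles, 18 between Patellar and Achilles, 20 between Supraspinatus and Achilles, 23 between Patellar and Flexor, 20 between Supraspinatus and Flexor and 20 between Supraspinatus and Patellar. Of these, 2, 18, 20, 21, 19 and 18 were also called here, each in the same direction when a column of the authors' deposited table named for 2 tendons is read as the first minus the second, a reading the table itself does not state.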

How the data were processed

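RNA from Achilles, forepaw flexor, patellar and supraspinatus tendons was sequenced, and libraries were grouped by tendon and mouse number from their labels. The authors deposited whole-number read counts for 41204 genes, not normalized, and a table of log2 fold changes, p-values and adjusted p-values for all pairs. Per the submitters' processing notes, the tools included HISAT2, FastQC and edgeR, and the build was mm10. The sources used here name no read counter, strand setting or annotation, so counts of overlapping genes are uncertain.

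Counts were filtered with filterByExpr by tendon (23754 genes kept), scaled with TMM and fitted in R 4.3.3 with edgeR 4.0.16 (robust quasi-likelihood, 1 mean per tendon, 16 libraries). The 6 contrasts and the test over 4 tendons were adjusted by Benjamini-Hochberg over all genes tested, at 0.05. The SE after each log2 fold change is its size over the square root of the F statistic. Lengths are merged GENCODE exons. Shares were tested with exact permutation tests (SciPy 1.17.1) and figures drawn with matplotlib 3.10.9. The fit was tested on simulated counts. The settings tried instead were median-ratio size factors, no filter, DESeq2 1.42.0, voom in limma 3.58.1, blocking by mouse number, the muscle covariate, only the 8 libraries of a pair, no rRNA-like genes, longest transcripts as lengths, and leaving out each library. Leaving out libraries for single members, and all settings for members that set 1 tendon apart, were added after seeing the data. The members, lists and rules were chosen with earlier results of these data known. The members are described gene by gene, and other genes are the 3 of each list with the smallest adjusted p in the comparison with most calls, or markers. Of these, 1 member and 2 other genes are counted but not reported here by name. Nothing says that the libraries of a tendon came from separate animals beyond their mouse numbers, so p-values measure the spread between these libraries. Limits for counts of 0 cover counting error only.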

Additional observations from a re-analysis of the deposited data

Results flagged for a closer look

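In 35 members and 4 tendons, 140 groups of 4 libraries were examined for a library far from the other 3 (Dixon's test at its 95% critical value), and 8 had one, where chance gives about 1 in 20 groups. Itga7 was low in Achilles replicate 2 (199.7 CPM, others 259 to 269.5) and high in Flexor replicate 1 (295 CPM, others 217.5 to 224). Itga9 was high in Supraspinatus replicate 4 (33.0 CPM, others 16.8 to 19.5). Itgad was seen in Patellar replicate 2 (0.351 CPM) and at 0 in the other 3 Patellar libraries. Itgax was high in the same library (2.89 CPM, others 0.0347 to 0.323). Itgb6 was high in Patellar replicate 1 (3.42 CPM, others 0.108 to 0.417), and Lamc1 was low in that library (81.1 CPM, others 117 to 123). Itgb7 was low in Flexor replicate 4 (2.56 CPM, others 3.34 to 3.42).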

How the results depend on the processing

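Of the 100 member differences called, 100 kept their direction and side of the threshold with median-ratio size factors, with DESeq2 and without rRNA-like genes, 92 with no filter, 98 with limma voom, 93 in fits of only the 8 libraries compared and 68 with the muscle covariate. The covariate is nearly set by tendon, since the Patellar muscle sums lie far below the others. It reversed Itgb7 in Patellar minus Flexor (-1.18) and Lama4 in Supraspinatus minus Patellar (0.25). It gave 10 members called in Patellar minus Achilles (18 otherwise, 8 of them kept) and 11 in Supraspinatus minus Patellar (18 otherwise, 6 of them kept). In Patellar minus Flexor it gave 15 (22 otherwise, 13 of them kept). The shares of all genes called fell too, from 38.4% to 15.5%, 53.3% to 20.6% and 50.3% to 22.4% in that order. Cases distinct to a tendon numbered 11 with it (18 otherwise), not all of them among the 18. The cause was not tested. The 8 calls lost with no filter were Itgav and Itgb4 in Patellar minus Achilles, Itga8, Lama3 and Lamb1 in Supraspinatus minus Achilles, Itga8 and Itgb3 in Supraspinatus minus Flexor, and Lama4 in Supraspinatus minus Patellar. With limma voom Itga4 in Patellar minus Flexor and Itgb8 in Supraspinatus minus Patellar were lost. In fits of 8 libraries Itga10, Itgav and Itgb4 in Patellar minus Achilles, Itga4 and Itgb2 in Patellar minus Flexor, and Itgb8 and Lamb3 in Supraspinatus minus Patellar were lost.

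Members called in Flexor minus Achilles numbered 3, and 5 with DESeq2, 5 with limma voom and 8 in the fit of only 8 libraries. The shares of all genes called there were 16.2%, 21.8%, 21.4% and 29.3% in the same order, and 10.3% to 21.9% with 1 library left out. With each library left out in turn the count of members was 2 to 6 in Flexor minus Achilles, 15 to 22 in Patellar minus Achilles, 16 to 21 in Supraspinatus minus Achilles, 20 to 23 in Patellar minus Flexor, 16 to 21 in Supraspinatus minus Flexor, 16 to 22 in Supraspinatus minus Patellar, 27 to 33 over all 4 tendons and 16 to 22 distinct to a tendon. Of the 100 differences, 79 passed in every such fit.

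With the mouse number as a replicate block 99 of 100 kept their call, Itga4 in Patellar minus Flexor being lost (-0.72, adjusted p = 0.069, edgeR). Same-numbered libraries of different tendons correlated with r from -0.135 to 0.255 in their deviations (24 pairs, 2 above 0.1). The 2 were Flexor with Supraspinatus, in replicate 4 (0.255) and replicate 2 (0.15). Of 16 libraries, 5 correlated best with their own number. The mean r was 0.0186 for same-numbered pairs and -0.00629 for pairs of unlike numbers. Such correlations cannot decide whether equal numbers mean 1 animal. No share test passed with longest transcripts as lengths (66 of 120 at p = 0.0286, exact permutation). With a library left out, comparisons of 3 against 4 libraries cannot go below an exact p of 0.0571, while those of the other tendons stay at 4 against 4. No share test passed the adjustment in these runs, the smallest adjusted p being 0.0927 to 0.104 (exact permutation). The Patellar libraries were the shallowest, which limits members of few counts such as Itgad, Itgax and Lama1 most.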
